A study of Mus musculus with 8 samples.

Results

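The mitochondrial ribosomal protein genes were taken as every protein-coding gene of the deposited count table whose symbol begins with Mrpl or Mrps followed by a digit, after the Ensembl identifiers had been matched to mouse GENCODE symbols. This gave 78 of the 22430 genes listed, 49 of the large subunit (Mrpl) and 29 of the small subunit (Mrps), and all 78 were among the 16730 genes that passed the filter on low counts. The libraries came from brain hemispheres (labelled whole brain) of 8 male C57Bl/6JRj mice without further treatment, 4 young adults of 6 months (6m) and 4 aged mice of 24 months (24m), with 1 library per animal. Poly(A) RNA was sequenced as Illumina read pairs, and the values used here are read counts per gene. The members were chosen by name and not by their values.

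Mitochondria keep a ribosome of their own, the mitoribosome, which translates the few proteins that the mitochondrial genome still encodes, all of them parts of the respiratory chain and the ATP synthase. Its ribosomal RNAs come from the mitochondrial genome, whereas every one of its proteins is encoded in the nucleus, made on cytosolic ribosomes and imported. Some of these proteins descend from bacterial ribosomal proteins and others were added in mitochondria. The brain depends heavily on oxidative phosphorylation, so that defects of mitoribosomal proteins in patients can affect it.

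At 24m, 58 of the 78 Mrp genes were called lower and 0 were called higher. A gene was called at an adjusted p (padj) of at most 0.05 in edgeR's quasi-likelihood test over all tested genes together with a log2 fold change (log2FC, 24m against 6m) of at least 0.58 in either direction. Among all tested genes, 18.3% were called lower and 25.3% higher under the same rule. The median log2FC of the Mrp genes was -0.78, a level 1.72-fold lower at 24m, and the median over all tested genes was -0.0034. The log2FC was below 0 for 77 of the 78, from -1.26 for Mrpl52 up to 0.11 for Mrps31. Without the fold threshold, 70 Mrp genes had a padj of at most 0.05 and a lower level at 24m, which held for 29.9% of all tested genes. In 68 Mrp genes every 24m library lay below every 6m library, as was the case for 26.8% of all tested genes.

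These counts moved with the treatment of gene length. The coding sequences of the Mrp genes were short, from 276 to 1326 bases with a median of 582, against 1365 over the tested genes that have one, and short genes in general were lower at 24m. When a smooth trend over coding length was removed in each library, an alternative chosen after seeing the data, 6 Mrp genes were called lower (7.69%, against 11.4% of all tested genes) and their median log2FC was -0.31, against 0.05 over all genes. In that fit 52 of the 78 still had a padj of at most 0.05 and a lower level, set against 25.6% of all tested genes, and 0 were called higher. With a trend over exonic length (all annotated exons of a gene merged) removed instead, 36 were called lower, against 13.3% of all genes.

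**Figure D1:**
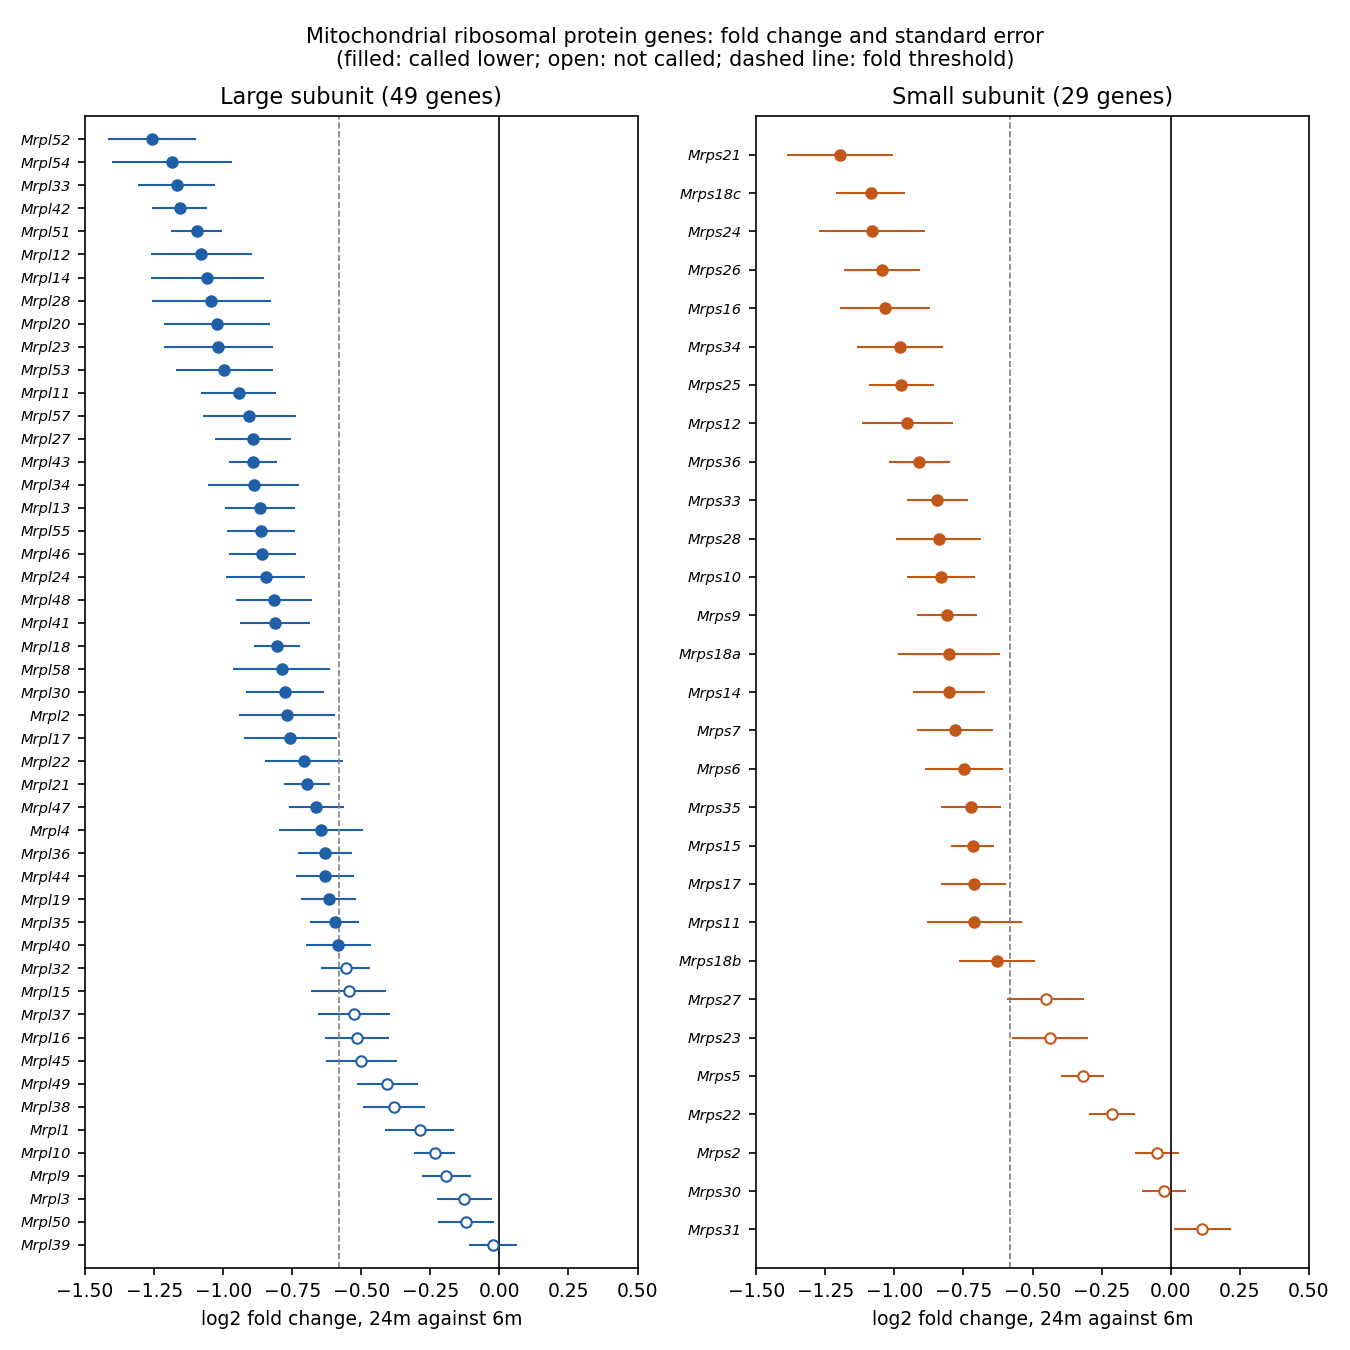
Log2 fold change at 24m against 6m (x axis) of each mitochondrial ribosomal protein gene, with its standard error, in the large subunit (left, 49 genes) and the small subunit (right, 29 genes). Filled points were called lower, open points were not, and the dashed line marks the fold threshold of 0.58. In both subunits most genes lie between -1.26 and the threshold, and Mrps31 is the single gene above 0.

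The libraries held 63460940 to 103462414 counts each, and the fewest counts of any Mrp gene in any library were 334. Summed counts of the 78 genes made up 0.593, 0.552, 0.561 and 0.596% of the counts in the young libraries, replicates 1 to 4 in order, and 0.463, 0.374, 0.366 and 0.335% in the aged ones. The aged libraries all lay below the young ones, and 24m replicate 1 was the closest to them. Against the mean log2 level at 6m, the median Mrp gene stood at -0.44 in 24m replicate 1, -0.87 in both 24m replicates 2 and 3, and -1.05 in 24m replicate 4, whereas the 6m libraries spread from -0.09 to 0.11. The order of the libraries was shared by most members: of the 4 aged libraries, replicate 1 had the highest level for 72 of the 78 genes and replicate 4 the lowest for 69. At 6m, replicate 4 was highest for 53 genes and replicate 2 lowest for 45. Without 24m replicate 1, 65 Mrp genes were called lower, beside 21.9% of all tested genes, and the median log2FC of the Mrp genes was -0.92.

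**Figure D2:**
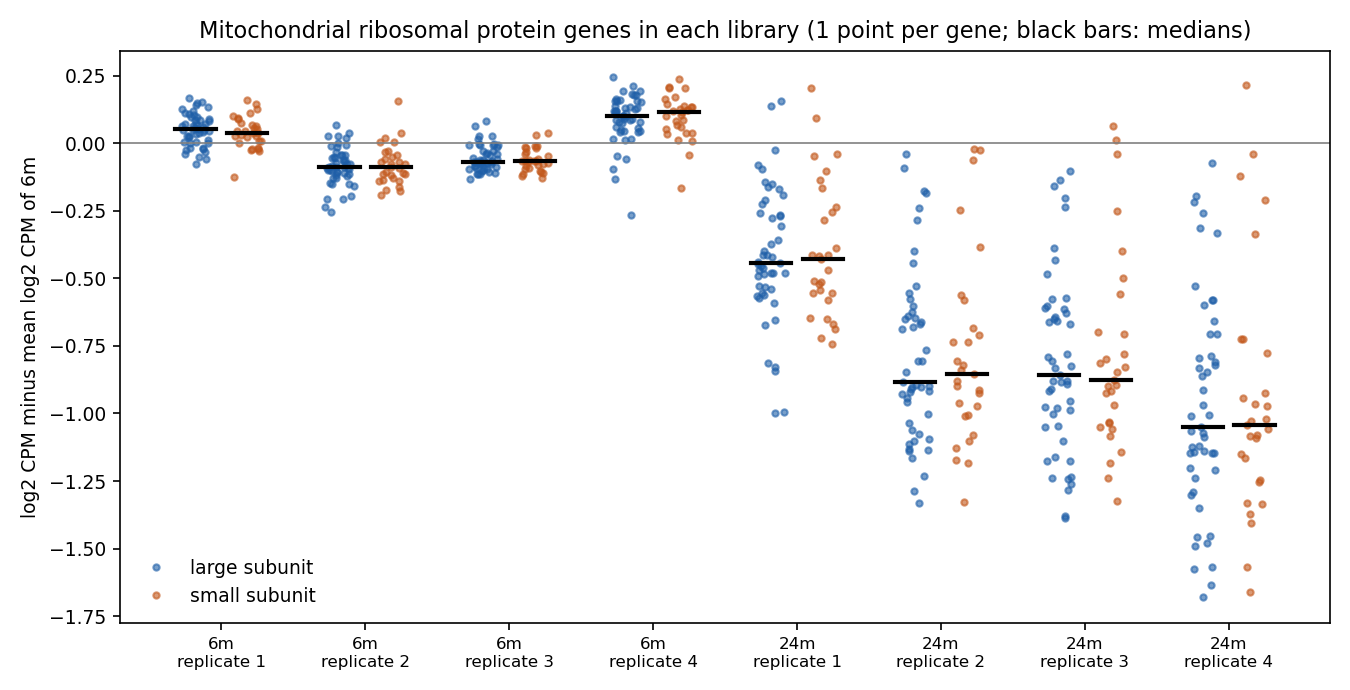
Log2 CPM of each mitochondrial ribosomal protein gene minus its mean log2 CPM at 6m (y axis) in the 8 libraries, with 1 point per gene, large subunit in blue and small subunit in orange, and black bars at the medians. The medians at 24m lie below those of every 6m library, and both subunits shift together within each library.

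Markers of other cells moved with age in the same libraries. All 5 erythroid markers (haemoglobin chains and Alas2) were called lower, and their summed level was 4813 to 7225 CPM (counts scaled to the size of the library with TMM factors) at 6m and 1407 to 4161 at 24m, with the 4161 in 24m replicate 1. The summed level of 9 neuronal markers was 4221 to 4889 CPM at 6m and 5679 to 6030 at 24m, with 1 called lower and 3 higher, that of 6 astrocyte markers 2503 to 3048 and 2949 to 3634, with 4 called higher, and that of 6 oligodendrocyte markers 3141 to 3669 and 4008 to 4221, with 1 called higher. For 6 microglial markers the sums were 258.7 to 269.1 and 300.8 to 397.6 CPM, with 2 called higher, for 5 endothelial markers 34.0 to 46.8 and 25.9 to 42.9, with 1 called lower and 2 higher, and for 5 choroid plexus markers 1698 to 2927 and 928.0 to 2254, with 3 called higher. Of the aged libraries, replicate 1 was also the highest in the astrocyte, microglial and choroid plexus sums and the lowest in the neuronal and endothelial sums. None of these markers was at 0, and 3 liver markers summed to at most 1.97 CPM in any library. The part of these cells in the levels of the Mrp genes was not tested. In bulk tissue, fewer cells of a type and less RNA per cell cannot be told apart.

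The large and the small subunit were lower at 24m to a like degree. Of the large subunit genes 36 of 49 were called lower with a median log2FC of -0.78, and of the small subunit genes 22 of 29 with a median of -0.80. The large subunit median minus the small subunit median was 0.025, whose sign turned with a GC or exonic length trend removed, after thinning to the smallest library and with some libraries left out, being -0.018 without 24m replicate 1. With genes assigned by the place of the protein rather than by symbol it was 0.015. To compare levels between genes, CPM were divided by the coding length in kilobases, although reads from untranslated regions are also counted. The summed level of the large subunit over that of the small subunit was 1.68, 1.67, 1.68 and 1.66 in the young libraries and 1.71, 1.71, 1.68 and 1.70 in the aged ones. The ratio was 1.67 ± 0.0112 (SD, n = 4) at 6m and 1.70 ± 0.0119 (SD, n = 4) at 24m, given as a description with no test. The lowest ratio at 24m, 1.68, was at the upper end of the range at 6m. The mean log2 level against 6m of the large minus the small subunit genes went the other way. It was 0.0091, -0.0064, 0.0064 and -0.0091 in the young libraries and -0.021, -0.0069, -0.030 and -0.026 in the aged ones.

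Among the small subunit genes Mrps21 had both the highest level per kilobase and the strongest decrease. Mrps21 (ENSMUSG00000054312, chr3:95766069-95778879, minus strand, GRCm39), the counterpart of bacterial protein S21, had 184.7, 156.0, 154.5 and 183.2 CPM in the 6m libraries and 107.8, 67.4, 67.5 and 53.5 CPM in the 24m libraries. The groups did not overlap, and the level at 24m was 2.29-fold lower (log2FC -1.20 ± 0.19 SE, padj = 0.000645). Mrps18c, the paralog that is placed like bacterial S18, had 43.1 to 48.9 CPM at 6m and 19.2 to 27.2 at 24m (log2FC -1.09 ± 0.12, padj = 0.00012). Its paralogs were lower to a smaller extent, Mrps18a at log2FC -0.80 ± 0.18 (padj = 0.00408) and Mrps18b at -0.63 ± 0.14 (padj = 0.00311). The protein of Mrps18a sits in the large subunit despite its name. The difference between the paralogs was not tested.

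Of 3 genes for proteins at the decoding site and the entry of the messenger 2 were called lower, with a median log2FC of -0.95, and differences among the 3 were not tested. Mrps12, the counterpart of the bacterial decoding protein S12, had 133.8, 115.2, 124.4 and 150.5 CPM at 6m and 91.4, 64.8, 62.7 and 51.6 CPM at 24m, without overlap (log2FC -0.95 ± 0.17, padj = 0.000927). Mrps24, at the entry of the messenger, had 113.5 to 141.5 CPM at 6m and 43.1 to 87.2 at 24m (log2FC -1.08 ± 0.19, padj = 0.00106). Mrps5, also at the entry, had 57.9 to 61.2 CPM at 6m and 44.9 to 52.7 at 24m, again without overlap, but its log2FC of -0.32 ± 0.08 (padj = 0.00614) did not reach the fold threshold. Mrps26 and Mrps16 completed the small subunit genes with the strongest decrease, at log2FC -1.05 ± 0.14 (padj = 0.000239) and -1.04 ± 0.16 (padj = 0.000568). Mrps33, among the most abundant small subunit genes per kilobase of coding sequence but less so per kilobase of transcript, had 100.2 to 104.1 CPM at 6m and 49.3 to 69.8 at 24m (log2FC -0.85 ± 0.11, padj = 0.000219). Mrps36, whose protein is now placed in the alpha-ketoglutarate dehydrogenase complex rather than in the ribosome, showed a log2FC of -0.91 ± 0.11 (padj = 0.000153).

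In the large subunit, Mrpl52, Mrpl54, Mrpl33, Mrpl42 and Mrpl51 had the strongest decrease. Mrpl52 (ENSMUSG00000010406, chr14:54664360-54668593, plus strand, GRCm39), a protein of the central protuberance found in mitochondria but not in bacteria, had 85.5, 69.9, 74.0 and 82.0 CPM at 6m and 43.7, 31.8, 29.8 and 24.97 CPM at 24m. The level at 24m was 2.39-fold lower (log2FC -1.26 ± 0.16, padj = 0.0002), and the groups were far apart. Mrpl33 (chr5:31754279-31837542, plus strand), the counterpart of bacterial L33, had 48.4, 44.0, 43.2 and 49.1 CPM at 6m and 26.2, 20.5, 18.9 and 16.4 CPM at 24m (log2FC -1.17 ± 0.14, padj = 0.000139). Mrpl42 and Mrpl51, both specific to mitochondria, had the smallest SE of log2FC among these genes. Mrpl51 had 73.2, 67.3, 69.4 and 83.7 CPM at 6m and 36.6, 35.0, 34.0 and 31.6 CPM at 24m (log2FC -1.10 ± 0.09, padj = 3.4e-05), and Mrpl42 had a log2FC of -1.16 ± 0.10 (padj = 3.59e-05).

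The genes of the stalk, which recruits the translation factors, included Mrpl54 and Mrpl12, and 4 of these 5 genes were called lower with a median log2FC of -0.996. Mrpl12 (ENSMUSG00000039640, chr11:120375430-120381396, plus strand, GRCm39), the stalk protein that also binds the mitochondrial RNA polymerase, had 205.7, 166.5, 193.5 and 235.8 CPM at 6m and 132.1, 90.7, 84.0 and 72.5 CPM at 24m (log2FC -1.08 ± 0.18, padj = 0.000809). Mrpl54 had 68.7 to 89.0 CPM at 6m and 24.6 to 53.2 at 24m (log2FC -1.19 ± 0.22, padj = 0.0013), and Mrpl11, at the base of the stalk, had a log2FC of -0.94 ± 0.13 (padj = 0.00035). Mrpl10, which anchors the Mrpl12 proteins to the ribosome, had 61.1 to 68.1 CPM at 6m and 51.0 to 57.4 at 24m. Its groups did not overlap, but the log2FC was -0.23 ± 0.08 (padj = 0.0211) and missed the fold threshold. Mrpl10 and Mrpl12 lie next to each other in the ribosome, and their fold changes are given here side by side without a test of the difference.

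Around the peptidyl transferase centre, where the peptide bond is formed, 3 of 5 genes were called lower, with a median log2FC of -0.65. Mrpl2 and Mrpl4 had log2FC of -0.77 ± 0.17 (padj = 0.00376) and -0.65 ± 0.15 (padj = 0.00482), whereas Mrpl3 had 68.8 to 73.1 CPM at 6m and 78.9, 63.0, 60.8 and 59.9 CPM at 24m (log2FC -0.13 ± 0.10, padj = 0.285). For Mrpl3 the aged replicate 1 lay above every young library and the other 3 aged libraries below all of them. Of 7 genes around the exit of the peptide tunnel, 5 were called lower, with a median of -0.66. Mrpl23 fell furthest, with a log2FC of -1.02 ± 0.20 (padj = 0.00166), followed by Mrpl24 at -0.85 ± 0.14 (padj = 0.000827) and Mrpl22 at -0.71 ± 0.14 (padj = 0.00198). Mrpl45, which ties the ribosome to the inner membrane, had 53.0 to 61.2 CPM at 6m and 35.1 to 51.5 at 24m, and its log2FC of -0.50 ± 0.13 (padj = 0.00694) stayed short of the fold threshold. Of 6 genes of the central protuberance 5 were called lower, with a median of -0.81. Mrpl58, which releases peptides from stalled mitoribosomes, had a log2FC of -0.79 ± 0.17 (padj = 0.00343). These counts by role rest on few genes, stand beside 18.3% called lower over all tested genes and moved with gene length. With the coding length trend removed, 1 of the 5 stalk genes, 0 of 5 around the peptidyl transferase centre, 0 of 7 at the tunnel exit, 1 of 6 in the central protuberance and 0 of 3 at the decoding site and messenger entry were called lower. Their medians in that fit were -0.48, -0.27, -0.34, -0.35 and -0.31. With library totals alone, 4, 1, 2, 4 and 2 genes were called lower. Over all tested genes, 11.4% were called lower with the coding length trend removed and 10.4% with library totals alone.

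Beyond these structural groups, Mrpl20 had the highest level per kilobase of the large subunit at 6m, 408.0 ± 35.8 CPM per kb (SD, n = 4). Mrpl20 had 201.5, 167.9, 170.6 and 189.5 CPM at 6m and 131.9, 84.1, 77.3 and 66.3 CPM at 24m (log2FC -1.02 ± 0.19, padj = 0.00143), without overlap. The corresponding level was 332.3 ± 47.7 CPM per kb for Mrpl12, 483.2 ± 47.3 for Mrps21 and 319.8 ± 5.62 for Mrps33, whereas Mrpl1 stood at 6.07 ± 0.748 and Mrps31 at 13.8 ± 1.28. The levels of Mrpl12 and Mrps33, neighbours in this order, differed by less than the SD of Mrpl12 between the 6m libraries, whereas Mrps21 and Mrpl20, and Mrps31 and Mrpl1, differed by more than the SD of either gene. Per kilobase of canonical transcript at 6m, Mrpl12 stood at 82.0 CPM and Mrps33 at 86.0, both below Mrpl28 at 190.1.

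**Figure D3:**
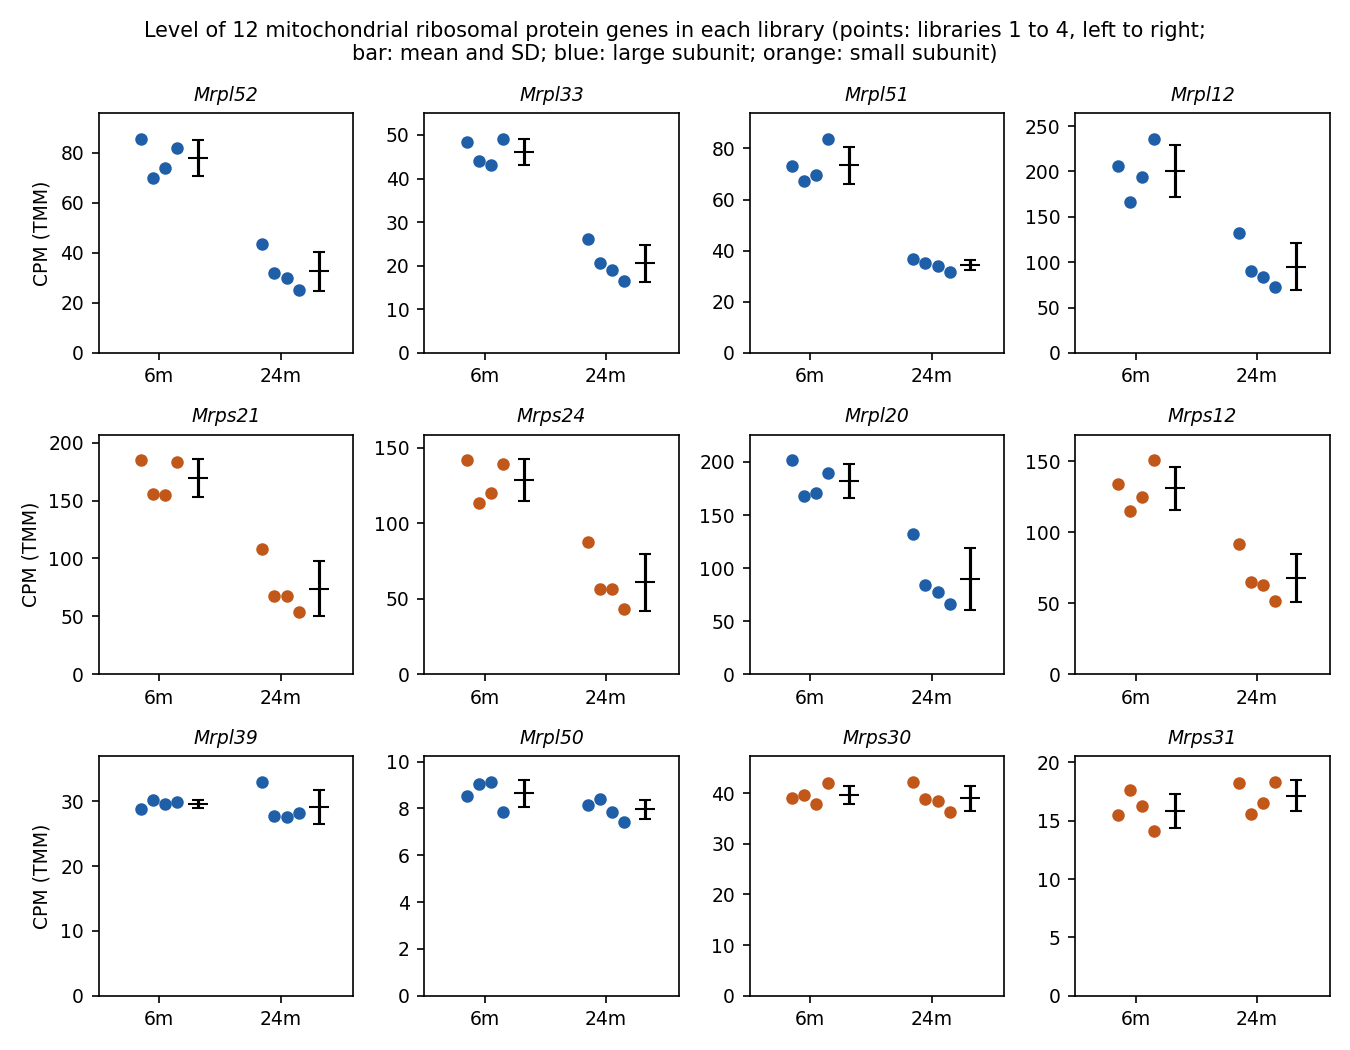
Level in CPM (y axis, starting at 0, with a scale of its own in each panel) of 12 mitochondrial ribosomal protein genes in the 4 libraries of each age, with the mean and SD beside the points. The genes of the upper panels, from Mrpl52 to Mrps12, have no overlap between 6m and 24m, whereas Mrpl39, Mrpl50, Mrps30 and Mrps31 in the bottom row overlap.

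Of the 20 genes that were not called, 12 had a padj of at most 0.05 with a log2FC short of the threshold, and 8 had a padj above 0.05. These 8 were Mrpl1, Mrpl3, Mrpl9, Mrpl39, Mrpl50, Mrps2, Mrps30 and Mrps31. Mrps30, which has the longest coding sequence of the group and a protein placed in the large subunit despite its name, had 39.0, 39.6, 37.8 and 41.9 CPM at 6m and 42.2, 38.8, 38.4 and 36.3 CPM at 24m (log2FC -0.02 ± 0.08, padj = 0.817). Mrpl39, at the tunnel exit, had 28.8 to 30.2 CPM at 6m and 33.0, 27.8, 27.6 and 28.2 CPM at 24m (log2FC -0.02 ± 0.09, padj = 0.823). For both genes the libraries of the ages overlapped. Mrps2, the counterpart of bacterial S2, had 20.3 to 23.0 CPM at 6m and 20.6 to 22.3 at 24m (log2FC -0.05 ± 0.08, padj = 0.609). Mrps31 had 15.5, 17.6, 16.2 and 14.1 CPM at 6m and 18.2, 15.6, 16.5 and 18.3 CPM at 24m (log2FC 0.11 ± 0.10, padj = 0.354), and was the single Mrp gene whose mean was higher at 24m. Mrpl50 (log2FC -0.12 ± 0.10, padj = 0.321), Mrpl9 (-0.19 ± 0.09, padj = 0.0882) and Mrpl1 (-0.29 ± 0.13, padj = 0.0694) all overlapped between the ages. The results of these 8 genes varied with the processing, and each passed the padj in some alternative fit. For Mrpl39 that was as a higher level, with library totals alone (log2FC 0.19, padj = 0.0462). With quantile normalization and DESeq2, Mrpl1 was called lower (log2FC -0.62, padj = 1.14e-07) and Mrpl50 passed the padj (log2FC -0.41, padj = 0.000749), whereas Mrpl50 was higher with the coding length trend removed (0.48, padj = 0.00765) or the exonic length trend removed (0.36, padj = 0.0215). Without 24m replicate 1, Mrpl3 and Mrpl9 passed the padj (0.0102 and 0.0122) with a lower level at 24m. These p-values above the threshold do not show that the levels were equal.

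The size of the decrease varied with coding length and with level. Of the 39 Mrp genes with a coding length of at most 582 bases, 35 were called lower with a median log2FC of -0.89, and of the 39 longer ones 23 with a median of -0.63. Without 24m replicate 1 these counts were 37 and 28, beside 21.9% of all tested genes. Spearman's rho between log2FC and coding length was 0.645 over the 78 genes, and 0.386 over all tested genes, which are not independent replicates. Tested genes with a coding length of 518 to 624 bases, a range that holds the Mrp median, had a median log2FC of -0.45, and those of 22 to 384 bases had one of -0.77. Of all 7764 tested genes within the length range of the Mrp genes, 28.0% were called lower and 15.9% higher, with a median of -0.26. After removal of the coding length trend, 0 of the 39 shorter and 6 of the 39 longer Mrp genes were called lower, with medians of -0.28 and -0.36. The 6 were Mrpl28, Mrps9, Mrpl12, Mrpl46, Mrps26 and Mrps34, all above the median length of the group, with Mrpl28 the lowest at log2FC -0.75 ± 0.17 (padj = 0.00314) in that fit. The cause of the length trend was not tested.

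**Figure D4:**
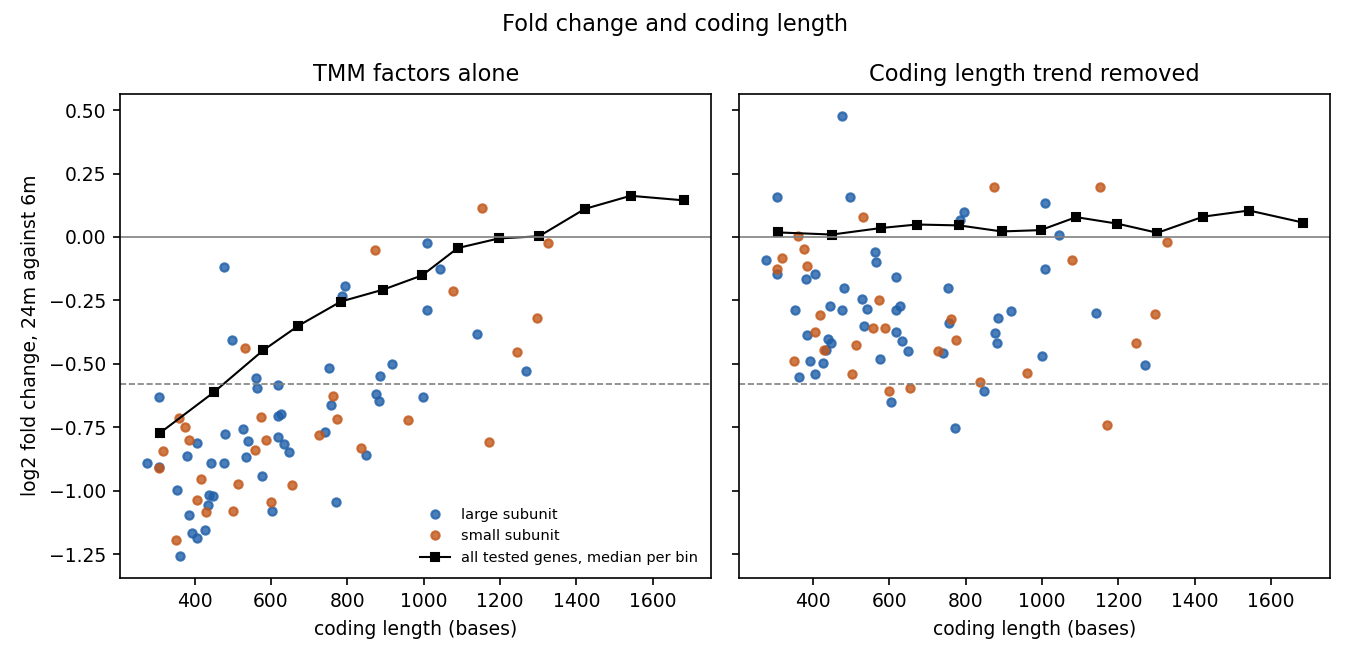
Log2 fold change (y axis) against coding length in bases (x axis) for the mitochondrial ribosomal protein genes, with TMM factors alone (left) and after removal of a trend over coding length (right). Black squares are medians over bins of about equal numbers of tested genes, which rise from -0.77 at the shortest genes on the left, and the dashed line marks the fold threshold.

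Split by level per kilobase over all libraries, 13 of the 26 genes with the lowest level, 19 of the 26 in the middle and all 26 with the highest were called lower, with medians of -0.58, -0.77 and -0.91. Since that level has the coding length in its denominator, the CPM is given as well, for which Spearman's rho with log2FC was -0.449 over the 78 genes and -0.0978 over all tested genes. Coding length and CPM were weakly related among the Mrp genes (rho -0.123). After removal of the coding length trend, the medians of the 3 groups were -0.30, -0.32 and -0.37, with 2, 0 and 4 called lower, beside 11.4% of all tested genes. With library totals alone 4, 12 and 23 were called lower, beside 10.4% of all tested genes. GC content of the transcript had a rho of -0.175 with log2FC. The 46 genes with a bacterial counterpart and the 31 genes specific to mitochondria had medians of -0.78 and -0.79, with 37 and 20 called lower, beside 18.3% of all tested genes. With the coding length trend removed 3 genes of each kind were called lower, with medians of -0.31 and -0.33, and with library totals alone 22 and 16. These fits called 11.4% and 10.4% of all tested genes lower.

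Many Mrp genes share their start region with another gene, which allows a comparison of neighbours. For 15 of the 78 (19.2%) a protein-coding gene on the other strand began within 1000 bases upstream or 100 bases downstream of the start, against 7.28% of the 16573 tested protein-coding genes. Mrpl46 and Mrps11 are such a pair with starts 30 bases apart, and had log2FC of -0.86 and -0.71. The 13 partners that are not Mrp genes had a median log2FC of -0.33 with 5 called lower and 0 higher, where 18.3% of all tested genes were called lower and their median was -0.0034. The Mrp genes of these pairs had a median of -0.81, and in 10 of the 13 pairs the partner had the higher log2FC. Mrpl14 (-1.06) begins 7 bases from Tmem63b (0.19), an ion channel gene of 151.7 CPM at 6m and 172.7 CPM at 24m. Mrpl43 (-0.89) lies beside Twnk (0.07), the helicase of the mitochondrial genome, Mrpl51 (-1.10) beside the condensin gene Ncapd2 (-0.09), and Mrps12 (-0.95) beside Sars2 (-0.33), a seryl-tRNA synthetase of mitochondria. The opposite order was found for Mrpl49 (-0.41) and Fau (-1.08), which encodes a cytosolic ribosomal protein, for Mrpl30 (-0.78) and Mitd1 (-1.01), and for Mrpl10 (-0.23) and Lrrc46 (-0.66). The partners differ from the Mrp genes in coding length too, 2496 bases for Tmem63b, 4176 for Ncapd2 and 399 for Fau. These pairs were singled out after their values were seen.

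**Figure D5:**
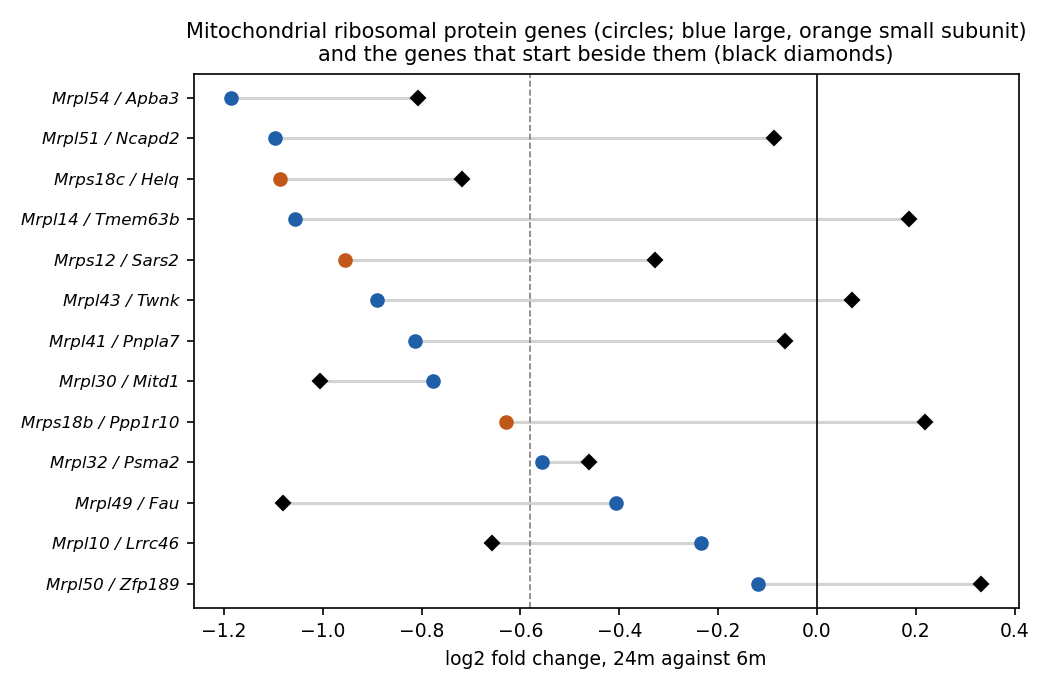
Log2 fold change (x axis) of 13 mitochondrial ribosomal protein genes (circles, blue for the large and orange for the small subunit) and of the protein-coding gene that starts beside each on the other strand (black diamonds). The partner lies to the right of the Mrp gene in 10 of the 13 pairs, and the dashed line marks the fold threshold.

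The start regions were searched for motifs of 3 factors known to act on nuclear genes for mitochondrial proteins, namely NRF1 (GCGCANGCGC), the ETS family that includes GABPA (CCGGAAGT) and YY1 (AAGATGGC). The window ran from 250 bases before to 50 bases after the start of the GENCODE canonical transcript, on both strands. The NRF1 letters were found in 12 of the 78 Mrp start regions (15.4%), against 5.81% of 21770 protein-coding genes and 7.43% of the tested ones. The ETS letters were found in 11 (14.1%, against 4.35% of all and 5.48% of tested genes) and the YY1 letters in 6 (7.69%, against 2.47 and 2.94%), and at least 1 of the 3 in 28 (35.9%, against 11.8% of all). No motif holds the letters of another, and sites of different motifs may overlap. The Mrp genes with and without a motif had similar medians, -0.79 and -0.78 for NRF1, -0.89 and -0.77 for ETS and -0.76 and -0.78 for YY1. The 120 bases before the start are shown for genes with these letters that fell strongly and for others that did not reach the threshold, read from the GRCm39 genome in the direction of the gene with the motif in capitals on either strand.
Mrpl12: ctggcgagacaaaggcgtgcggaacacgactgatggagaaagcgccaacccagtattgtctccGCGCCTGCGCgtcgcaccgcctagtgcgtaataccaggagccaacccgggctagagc
Mrps21: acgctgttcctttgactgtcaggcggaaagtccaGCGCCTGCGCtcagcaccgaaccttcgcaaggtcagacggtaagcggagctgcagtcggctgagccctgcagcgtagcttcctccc
Mrpl45: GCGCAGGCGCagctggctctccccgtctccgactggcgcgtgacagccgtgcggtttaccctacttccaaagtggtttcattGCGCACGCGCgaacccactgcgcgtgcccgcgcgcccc
Mrpl51: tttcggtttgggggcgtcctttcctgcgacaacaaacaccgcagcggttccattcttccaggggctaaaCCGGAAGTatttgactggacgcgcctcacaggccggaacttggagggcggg
Mrps18c: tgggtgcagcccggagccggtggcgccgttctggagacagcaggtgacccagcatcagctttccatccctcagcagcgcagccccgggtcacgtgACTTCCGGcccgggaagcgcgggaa
Mrps22: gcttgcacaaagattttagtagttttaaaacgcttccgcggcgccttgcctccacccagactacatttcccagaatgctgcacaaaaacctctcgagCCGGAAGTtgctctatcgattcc
The first 3 carry NRF1 letters and the last 3 ETS letters. The regions are chr11:120375319-120375438 (plus strand) for Mrpl12, chr3:95778832-95778951 (minus strand) for Mrps21, chr11:97206422-97206541 (plus strand) for Mrpl45, chr6:125169004-125169123 (plus strand) for Mrpl51, chr5:100946373-100946492 (plus strand) for Mrps18c and chr9:98483721-98483840 (minus strand) for Mrps22. Within each set the log2FC ranged widely, being -1.08 for Mrpl12, -1.20 for Mrps21 and -0.50 for Mrpl45, and -1.10 for Mrpl51, -1.09 for Mrps18c and -0.21 for Mrps22. Mrps22 was singled out after its values were seen. A match of letters is a description of the sequence and does not show that a factor bound there.

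The genes of the same pathway were counted from lists put together with earlier results of these data known, and the counts are to be set against the 18.3% called lower and 25.3% called higher over all tested genes. Of 5 mitoribosomal subunits with other names, 3 were called lower, namely Chchd1 (log2FC -0.96 ± 0.17, padj = 0.000951), Gadd45gip1 (-0.92 ± 0.18, padj = 0.00169) and Aurkaip1 (-0.90 ± 0.17, padj = 0.00124). Dap3, a GTP-binding subunit, passed the padj but not the fold (-0.55 ± 0.12, padj = 0.00292), and Ptcd3 had -0.23 ± 0.11 (padj = 0.0832). Of 27 tested assembly factors of the mitoribosome 8 were called lower and 2 higher, with a median of -0.35. Library totals alone gave 10.4% of all tested genes called lower and 5449 of 16730 higher. In that fit 3 of the 27 assembly factors were called lower and 4 higher, with a median of -0.14. The GTPase gene Mtg2 (-0.84 ± 0.15, padj = 0.00123) and Mettl17 (-0.84 ± 0.12, padj = 0.000352) were lowest, and Gtpbp10 (1.05 ± 0.28, padj = 0.00833, at 0.624 CPM at 6m) and Trmt2b (0.70 ± 0.12, padj = 0.000984) were highest. Of 19 genes for mitochondrial translation factors and messenger handling 5 were called lower (26.3%) and 1 higher. Their median was -0.32, and -0.10 with library totals alone, a fit in which the median over all tested genes was 0.21. Among them Mtres1, a ribosome rescue factor, had the lowest log2FC (-1.19 ± 0.09, padj = 2.3e-05), followed by Slirp, which stabilises mitochondrial messengers (-1.02 ± 0.12, padj = 0.000124). The translational activator Taco1 was called higher (0.70 ± 0.11, padj = 0.000621), and Gfm1, an elongation factor, had 0.13 ± 0.10 (padj = 0.283). With the coding length trend removed, 5 assembly factors and 5 translation factors were called lower, beside 11.4% of all tested genes. The medians of both lists were -0.28 in that fit, beside -0.31 for the Mrp genes and 0.05 over all tested genes.

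Of 13 genes for mitochondrial transcription and genome maintenance 3 were called lower (23.1%, near the 18.3% over all tested genes) and 0 higher. Scaling libraries by their totals alone moved the median over all tested genes from -0.0034 to 0.21. The median of these 13 genes was -0.18, and 0.04 with that scaling. Ssbp1, the single-stranded DNA binding protein (-0.82 ± 0.11, padj = 0.000266), and Mterf1a (-0.63 ± 0.14, padj = 0.00358) were lowest, and Tk2 (0.29 ± 0.09, padj = 0.0194) and Tfb2m (0.54 ± 0.18, padj = 0.0269) were highest without reaching the threshold. Of 11 regulators of nuclear genes for mitochondria 5 were called higher, beside 25.3% over all tested genes, and 1 was called lower. Their median log2FC was 0.46, and over the settings tried it ranged from 0.12 to 0.68 with 3 to 6 called higher. The coactivator gene Ppargc1a had 3.27 ± 0.716 CPM at 6m and 9.37 ± 3.82 CPM at 24m (SD, n = 4; log2FC 1.52 ± 0.31, padj = 0.00212), and Gabpa, an ETS factor, had 1.25 ± 0.425 and 3.20 ± 0.75 CPM (1.36 ± 0.27, padj = 0.00183). Yy1 was called higher (0.59 ± 0.11, padj = 0.00147), Nrf1 had 0.22 ± 0.09 (padj = 0.0559), Ppargc1b was called lower (-0.59 ± 0.14, padj = 0.00415) and Esrra had -0.23 ± 0.13 (padj = 0.128). Of 12 mitochondrial proteases and chaperones 2 were called lower (16.7%), the chaperonin Hspe1 (-1.05 ± 0.15, padj = 0.000379) and the protease Clpp (-0.99 ± 0.17, padj = 0.000972), while Hspa9 (0.57 ± 0.15, padj = 0.00726) and Yme1l1 (0.51 ± 0.17, padj = 0.0228) were at the upper end.

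Genes of the cytosolic ribosome had a larger median decrease than the Mrp genes, a difference that was not tested. Of 79 tested cytosolic ribosomal protein genes 77 were called lower with a median log2FC of -1.07, and 22 with a median of -0.50 once the coding length trend was removed. The 13 messengers of the mitochondrial genome, which the mitoribosome translates, made up 6.52, 6.20, 6.29 and 5.26% of the counts in the 6m libraries and 3.26, 3.69, 3.18 and 3.20% in the 24m libraries, without overlap. The mitochondrial ribosomal RNAs were not analysed here. In contrast to the Mrp genes, these messengers were not highest in 24m replicate 1 among the aged libraries.

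An annotated gene overlapped 62 of the 78 Mrp genes, so that some reads may have been shared where the counting did not use the strand. The 16 genes without any overlap had a median log2FC of -0.80 with 11 called lower. Of the genes named by rule, Mrpl11, Mrpl20, Mrpl23, Mrpl42, Mrpl50, Mrps5, Mrps16 and Mrps33 had no exonic overlap with another gene, and all the others had one, such as Mrps12 with Sars2, Mrpl54 with Matk and Mrps24 with Urgcp.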

How the data were processed

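RNA was sequenced from 4 hemispheres of 6m and 4 of 24m male mice, each from a separate animal, with a directional poly(A) library kit. The authors trimmed the reads with Trim Galore (version 0.4.11) and mapped them to GRCm39 with HISAT2 (version 2.1.0, both versions from the submitters' processing notes), and the deposited values are raw read counts per Ensembl gene made with featureCounts. The strand setting and the handling of reads with several matches in that counting are not given in the sources used here. Reads without molecular identifiers are not independent molecules.

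Symbols, coordinates and coding lengths came from GENCODE vM39 on GRCm39, which matched 22281 of the 22430 identifiers, and genes without a match held 0.312% of the counts. A gene entered the test if 4 or more libraries held over 5 counts of it. Testing was done with the quasi-likelihood test of edgeR (version 4.0.16, R 4.3.3) with TMM factors, age as the only term, two-sided, and Benjamini-Hochberg adjustment over all 16730 tested genes. The thresholds of a padj of at most 0.05 and a log2FC of 0.58 follow the study's methods. The standard error (SE) given with a log2FC is its absolute value divided by the square root of the F statistic of its test. Levels are CPM with TMM factors, given with SD over 4 libraries. The main fit was also run on counts simulated without a length trend, which does not bear on the results that moved with gene length. Alternatives were DESeq2 (version 1.42.0), limma-voom (limma version 3.58.1), other scalings and filters, trends over GC or length removed, thinning to the smallest library, each library left out in turn and a replicate block.

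Genes named with values were, in each subunit, the 5 called genes with the smallest log2FC, the 3 with the largest, every gene with a padj above 0.05, the 2 with the highest and the 1 with the lowest level per kilobase of coding sequence at 6m, and a list of genes with fixed roles in the ribosome. Of each pathway list, counts and the 2 smallest and 2 largest log2FC were taken. Yy1 and Nrf1, whose motifs were searched, and the mitoribosomal subunit gene Aurkaip1 are named outside this rule. The members, lists, roles, markers and alternatives were chosen with earlier results of these data known. Replicate libraries of one age differed by more than counting noise in every pair, so none was counted as a duplicate.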

Additional observations from a re-analysis of the deposited data

Results flagged for a closer look

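Single libraries stood apart from the other 3 of their age in 6 measures, by a gap to the nearest library that exceeded Dixon's critical share of the range of the 4. Chance alone flags about 1 in 20 groups, and 80 groups of 4 were examined, those of the genes named by rule and of library measures. In 24m replicate 1, Mrpl3 stood at 78.9 CPM (59.9 to 63.0 in the other aged libraries), Mrpl39 at 33.0 CPM (27.6 to 28.2) and Mrps18c at 27.2 CPM (19.2 to 20.3). Over all 78 genes, 4 had an outlying aged library, which was replicate 1 and high in all 4, and 1 had an outlying young library, which is fewer than that rate would give over 78 genes at both ages. That gene was Mrps2, at 20.3 CPM in 6m replicate 1 against 22.6 to 23.0 CPM in the others. The total of 24m replicate 1 was 103462414 counts, against 72936345 to 77044751 in the other aged libraries. The messengers of the mitochondrial genome made up 3.69% of the counts in 24m replicate 2, against 3.18 to 3.26% in the other aged libraries.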

How the results depend on the processing

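Over 23 settings, 0 Mrp genes were called higher, 64 of 78 had a negative log2FC in every setting, 3 were called lower in every setting and 12 in none. The count of 58 called lower was 6 after removal of the coding length trend and 36 after removal of the exonic length trend, and 53 to 65 when each library was left out in turn. The median log2FC of -0.78 was -0.31 and -0.57 in those length fits, and -0.58 with library totals alone, which shifted the median of all genes to 0.21. It was -0.92 to -0.70 over the left-out libraries. The large minus small subunit difference of 0.025 was -0.0126 with the GC trend removed, 0.068 with the coding length trend removed, -0.00891 with the exonic length trend removed and -0.00835 after thinning, and -0.0176 to 0.0283 over the left-out libraries. Over the same 78 genes, the other fits gave a count between 39 and 59. In the main fit without the fold threshold, 70 had a padj of at most 0.05 and a lower level. Over all 78 genes, 67 had a negative log2FC with the coding length trend removed, 71 with the exonic length trend removed and 70 with library totals alone. Among the 35 genes named by rule, the direction turned with the coding length trend removed for Mrpl10 (0.065), Mrpl3 (0.0091), Mrpl39 (0.14), Mrpl50 (0.48), Mrpl9 (0.10) and Mrps2 (0.20). It turned with the exonic length trend removed for Mrpl10 (0.076) and Mrpl50 (0.36). With library totals alone it turned for Mrpl3 (0.084), Mrpl39 (0.19), Mrpl50 (0.095), Mrpl9 (0.024), Mrps2 (0.17) and Mrps30 (0.19). Mrps31 turned with the GC trend removed (-0.024) and with quantile normalization and DESeq2 (-0.10). Over the left-out libraries Mrpl39 ranged from -0.0788 to 0.0016 (positive without 24m replicate 3) and Mrps30 from -0.0531 to 0.0093 (positive at 0.0093 without 24m replicate 4 and at 0.0056 without 6m replicate 4). With the coding length trend removed, 22 of these 35 genes lost their call. Calls were also lost for 9 with the exonic length trend removed, 4 with library totals alone, 3 with the GC trend removed, 1 (Mrpl4) with quantile normalization and DESeq2 and 2 (Mrpl4 and Mrps18b) without 24m replicate 4, whereas Mrpl1 gained one with quantile normalization and DESeq2 and Mrpl45 without 24m replicate 1. The cause was not tested.

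The replicate numbers did not pair the samples, since same-numbered libraries correlated at 0.271, 0.143, 0.0778 and -0.348 over genes. With the replicate block, 58 Mrp genes were called lower, the median log2FC was -0.81 and the subunit difference 0.0114, and no call among the 35 named genes changed. The lowest count of a Mrp gene in a library was 334, for Mrpl1, whose padj was 0.0445 after thinning.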
